A study of Bos taurus with 15 samples.

Results

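The insulin-like growth factor (IGF) axis was followed through 10 genes in the biceps brachii muscle of 15 cattle. They are the ligands IGF1 and IGF2, the receptors IGF1R and INSR, the docking proteins IRS1 and IRS2, and the binding proteins IGFBP3, IGFBP4, IGFBP5 and IGFBP6. The 10 genes were picked by name, out of 15427 genes that could be tested. A probe was assigned to one of them when its array name, its gene identifier or the human symbol in its array description named that gene. This gave 12 probes, since IGF2 and IGFBP5 have 2 each. Where a gene had 2 probes, the brighter one by its mean over all arrays represented it.

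The glucocorticoid prednisolone was given by mouth to 8 of them, named cows in the design text, at a daily dose of 30 mg per head over 35 days, and the other 7 were controls. Muscle was taken at slaughter, and total RNA of each animal was hybridised to 1 Agilent 1-colour bovine oligonucleotide array. Animals carry their label numbers, so P25 to P32 are the prednisolone animals, and C17, C18 and C20 to C24 the controls. RNA of the prednisolone animals was isolated with TRIzol and cleaned on RNeasy MinElute columns, and that of the controls with the RNeasy Mini kit, so treatment and extraction method cannot be told apart. The protocol text attached to the controls names other treatments (the implants Finaplix and Revalor, and Revalor with dexamethasone), yet the label of every one of these samples reads CONTROL, and no label assigns such a treatment to any of them. Breed and age were not given in the sources used here.

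IGF1 and IGF2 are secreted growth factors that act on muscle fibres and their precursor cells both from the circulation and from local synthesis. They bind the receptor tyrosine kinase IGF1R, and with lower affinity the insulin receptor INSR, and both receptors phosphorylate IRS1 and IRS2, which recruit phosphatidylinositol 3-kinase and so activate AKT. Most IGF outside the cell is held by IGF-binding proteins, which prolong its life and limit its access to the receptor. Glucocorticoids at high dose oppose this axis in skeletal muscle of rodents, where they are known to lower muscle IGF1 and insulin signalling.

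Values are log2 intensities after each array was shifted to a common 75th percentile. They rank animals for 1 probe and do not compare genes with each other. Errors are SDs over the 8 prednisolone and the 7 control animals. Differences are prednisolone minus control, with 95% confidence intervals from limma, a linear model fitted across all probes with moderated variances. Adjusted p-values are Benjamini-Hochberg values over the 20894 probes tested, and 0.05 is the threshold. In bulk tissue, fewer cells of a type and less RNA per cell cannot be told apart.

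Between 72.1% of spots (C17) and 87.4% (C20) had a value. Of the 8 muscle fibre markers, 7 were measured, and all 7 lay well above background on all 8 prednisolone arrays. A probe counted as well above background on an array only when all of its spots carried that scanner flag. Some arrays stood apart. Transcripts of testis germ cells were highest on C20 and then on P31, and transcripts of thymocytes on C17. P25 and P26 shared a slide and a scan day. Among the prednisolone arrays, P32 was alone on its slide and its scan day, and P31 alone on its slide. Values without C17, C20, P25, P26 or P31 are also given for several of the results below.

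Every one of the 10 genes had a value on all 15 arrays through its representing probe, and no member probe was saturated on a prednisolone array. On the 8 prednisolone arrays, all of these probes were well above background everywhere except that of INSR, which passed on 7. The dimmer IGF2 probe passed on 4 of 8.

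No member of the axis was found to differ between the groups. None of the 10 genes passed an adjusted p of 0.05 in limma, and the background was equally empty, with 0 of 20894 probes, a share of 0%. At an unadjusted p under 0.05, limma called 0 of the 10 genes, against 3.21% of all genes (495 of 15427) and 3.35% of all probes (699 of 20894). The exact permutation test called 0 probes after adjustment and 469 of 14324 before it, and the exact Wilcoxon test 0 and 610 of 20894, with 0 members among them in either test. The smallest possible permutation p was 0.000155, so a few probes could not pass adjustment however far apart the groups lay. The exact Wilcoxon test has such a floor too. The adjusted counts of these tests therefore add little to that of limma. The prednisolone and control ranges overlapped for every member, while they were separate for 0.227% of all genes (35 of 15427). Of the 10 differences, 8 were positive and 2 negative, with a median of 0.12. Over all genes tested, 52.2% of differences were positive and the median was 0.01. P25 and P26 held much of that balance: without this pair of arrays the differences of IGF1, IGF2, IGFBP3, IGFBP4 and IGFBP6 were negative, at -0.13, -0.03, -0.11, -0.14 and -0.25.

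**Figure D1:**
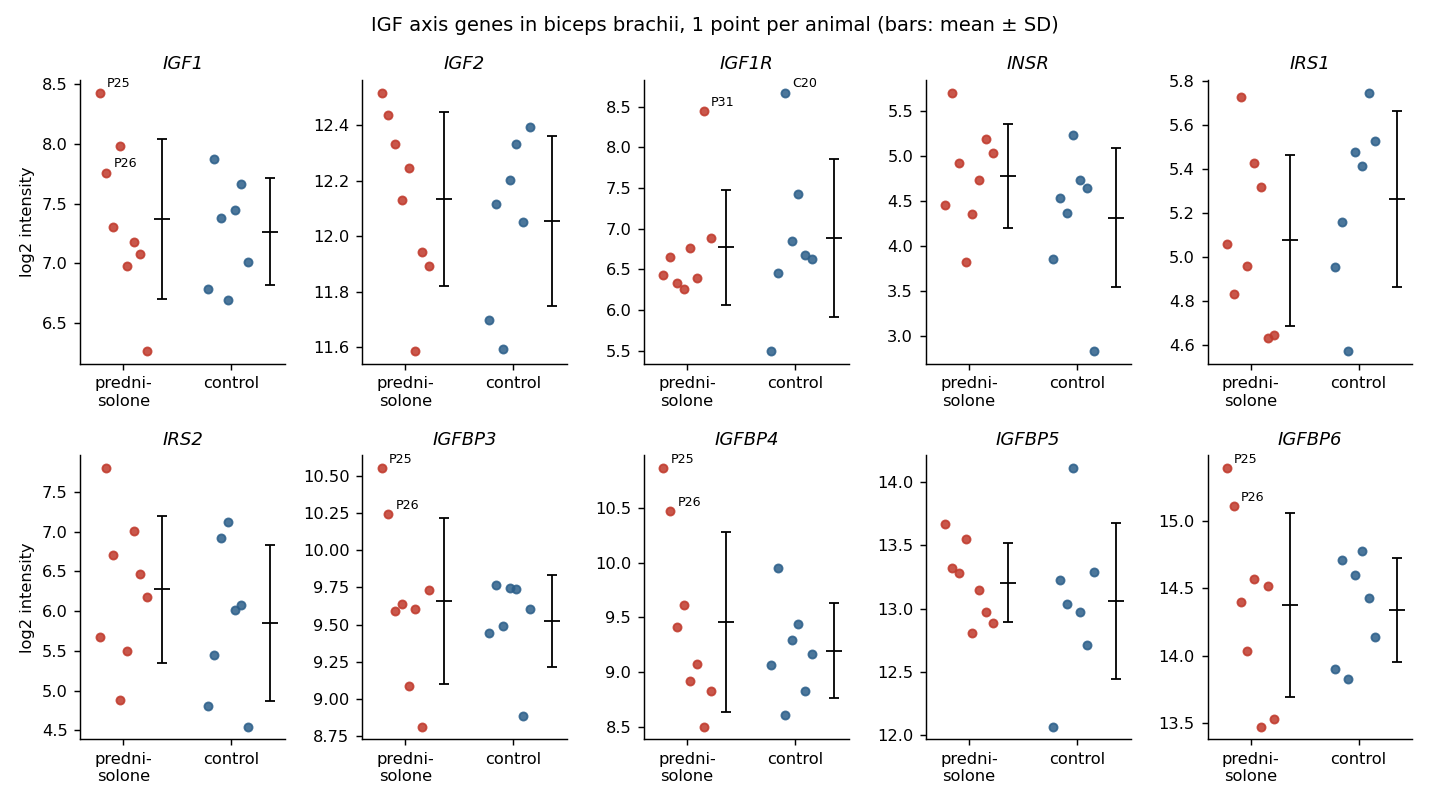
Log2 intensity (vertical axes, each with its own range) of the 10 IGF axis genes in prednisolone animals (red, n = 8, left) and control animals (blue, n = 7, right). Each point is 1 animal and bars are mean ± SD. The groups overlap for every gene, and P25 and P26 lie at the top for IGFBP3, IGFBP4 and IGFBP6.

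Among the ligands, IGF1 (probe A_73_108570) had a lowest value of 6.27, a median of 7.24 and a highest value of 8.43 in prednisolone animals, against 6.69, 7.38 and 7.88 in controls. The prednisolone animals thus spanned the whole control range, and 3 of 8 lay above the control median. The means were 7.37 ± 0.67 in prednisolone animals and 7.27 ± 0.45 in controls, a difference of 0.11 (95% interval -0.50 to 0.72, adjusted p = 0.994 in limma). On the linear scale the interval runs from 0.706-fold to 1.65-fold. It bounds the group difference, in which treatment and extraction method cannot be told apart, and not an effect of prednisolone alone. Without P25 the difference was -0.04, and without P25 and P26 it was -0.13. P25 was the highest of all 15 animals and P32 the lowest, and IGF1 differed 4.48-fold between them.

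IGF2 (A_73_104925), the ligand most abundant during fetal muscle growth, varied least of the 10 genes. Its lowest, median and highest values were 11.59, 12.19 and 12.52 in prednisolone animals and 11.59, 12.12 and 12.40 in controls. The ranges almost coincide, with P25 highest and P30 lowest, and 5 of 8 prednisolone animals lay above the control median. The means of 12.14 ± 0.31 in prednisolone animals and 12.06 ± 0.31 in controls gave a difference of 0.08 (-0.27 to 0.43, adjusted p = 0.993 in limma). All 15 animals lay within a 1.91-fold range, and 31.3% of all genes had a smaller SD within groups.

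The dimmer IGF2 probe (A_73_105403) averaged 3.90 ± 0.64 in the 8 prednisolone animals and 3.88 ± 0.35 in the 6 controls with a value, a difference of 0.02 (-0.58 to 0.61). It followed the bright probe only loosely, with r = 0.22 over the 14 arrays that had both. That probe is near the background, so the IGF2 results rest on the bright one.

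Of the receptors, IGF1R (A_73_118287) had a lowest value of 6.26, a median of 6.54 and a highest of 8.44 in prednisolone animals, against 5.50, 6.68 and 8.67 in controls. One animal of each group stood far above the rest: P31 at 8.44, where the next prednisolone animal had 6.89, and C20 at 8.67, where the next control had 7.43. C17 was lowest of all, and the 15 animals spanned 9.01-fold. The means were 6.77 ± 0.71 in prednisolone animals and 6.89 ± 0.97 in controls, a difference of -0.12 (-0.99 to 0.76, adjusted p = 0.995 in limma). Without P31 the difference was -0.36, without C20 it was 0.18, and without both it was -0.06. C20 and P31 are the arrays with the highest signal for testis germ cell transcripts, whose part in the IGF1R values was not tested.

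INSR (A_73_118745), the insulin receptor, had the largest positive difference of the 10 genes. Its lowest, median and highest values were 3.82, 4.83 and 5.71 in prednisolone animals and 2.84, 4.54 and 5.24 in controls. The groups overlapped over most of their ranges, and 5 of 8 prednisolone animals lay above the control median. The means were 4.78 ± 0.58 in prednisolone animals and 4.32 ± 0.77 in controls, a difference of 0.46 (-0.25 to 1.17, adjusted p = 0.993 in limma), or between 0.843-fold and 2.24-fold on the linear scale. C24 had by far the lowest value, 2.84, and without it the difference was 0.21.

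The docking proteins differed from each other in spread. IRS1 (A_73_104292) had a lowest value of 4.63, a median of 5.01 and a highest of 5.73 in prednisolone animals, against 4.57, 5.42 and 5.75 in controls. Although 6 of 8 prednisolone animals lay below the control median, both groups covered the same range. The means were 5.08 ± 0.39 in prednisolone animals and 5.26 ± 0.40 in controls, a difference of -0.19 (-0.62 to 0.24, adjusted p = 0.993 in limma).

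IRS2 (A_73_115294), which fasting is known to raise in the liver of rodents, was among the most variable transcripts here. Its lowest, median and highest values were 4.88, 6.32 and 7.80 in prednisolone animals and 4.55, 6.02 and 7.12 in controls. The animals spanned 9.53-fold, from C24 to P26, and 86.5% of all genes had a smaller SD within groups. The means were 6.27 ± 0.93 in prednisolone animals and 5.85 ± 0.98 in controls, a difference of 0.43 (-0.56 to 1.42, adjusted p = 0.993 in limma). Without P26 the difference was 0.21.

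IGFBP3 (A_73_120953), the main IGF carrier of the circulation, had a lowest value of 8.81, a median of 9.62 and a highest of 10.55 in prednisolone animals, against 8.88, 9.61 and 9.77 in controls. Only P25 at 10.55 and P26 at 10.24 exceeded the highest control. The means were 9.66 ± 0.56 in prednisolone animals and 9.52 ± 0.31 in controls, a difference of 0.13 (-0.36 to 0.63, adjusted p = 0.993 in limma).

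IGFBP4 (A_73_116582), a binding protein that mostly inhibits IGF action and is cleaved by the protease PAPPA, showed the same animals at the top. Its lowest, median and highest values were 8.50, 9.24 and 10.86 in prednisolone animals and 8.61, 9.16 and 9.95 in controls. P25 at 10.86 and P26 at 10.47 again lay above every control, while the other 6 prednisolone animals fell between 8.50 and 9.61. The means were 9.46 ± 0.83 in prednisolone animals and 9.19 ± 0.44 in controls, a difference of 0.26 (-0.44 to 0.97, adjusted p = 0.993 in limma).

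IGFBP5 (A_73_110179), the binding protein that is induced when myoblasts differentiate in culture, had a lowest value of 12.81, a median of 13.21 and a highest of 13.67 in prednisolone animals, against 12.07, 13.03 and 14.11 in controls. Here the controls were the wider group, since C17 was the lowest and C21 the highest animal of all. The means were 13.21 ± 0.31 in prednisolone animals and 13.06 ± 0.62 in controls, a difference of 0.15 (-0.37 to 0.66, adjusted p = 0.993 in limma). Without C17 the difference was -0.02. The dimmer IGFBP5 probe (A_73_103570) followed the bright one closely, with r = 0.92 over 15 arrays. Its means were 5.65 ± 0.46 in prednisolone animals and 5.40 ± 0.82 in controls, a difference of 0.24 (-0.44 to 0.93), and 7 of 8 prednisolone animals lay above its control median.

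IGFBP6 (A_73_119197), which binds IGF2 in preference to IGF1, had the smallest difference of the representing probes. Its lowest, median and highest values were 13.47, 14.46 and 15.39 in prednisolone animals and 13.82, 14.42 and 14.78 in controls. The 2 highest animals were P25 and P26 and the 2 lowest P30 and P32, so the prednisolone group lay on both sides of the controls. The means were 14.38 ± 0.68 in prednisolone animals and 14.34 ± 0.39 in controls, a difference of 0.04 (-0.56 to 0.64, adjusted p = 0.998 in limma). The sign of so small a difference turned when C17, C20, P25 or P26 was left out, with -0.11 without P25.

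**Figure D2:**
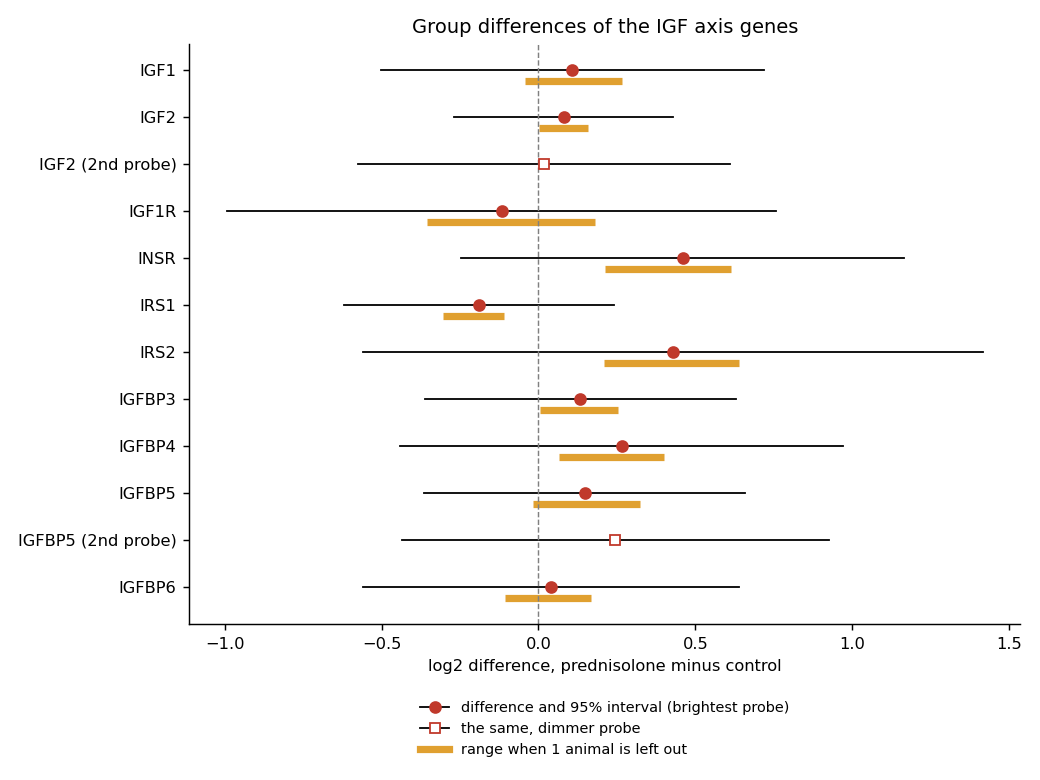
Log2 difference, prednisolone minus control, of each IGF axis gene (horizontal axis) with its 95% confidence interval (8 prednisolone and 7 control animals); open squares are the dimmer probes of IGF2 and IGFBP5. The thick lines give the range of the difference when 1 animal is left out. All 12 intervals include 0, and INSR and IRS2 have the largest positive differences, 0.46 and 0.43.

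All members but IGF2 and IRS1 had a larger SD within groups than the median gene. The median SD within groups was 0.57 for the 10 genes and 0.41 for all genes tested, and the median half-width of the 95% interval was 0.60 for the members and 0.46 for all genes. The 2 spots of a probe on an array measure scatter within the array only, and the SD of a single spot among the representing probes ran from 0.03 for IGFBP6 to 0.37 for IRS1. With 1 array per animal, the animal, its RNA extract and its array cannot be told apart in the SDs between animals. Among the representing probes, that of IRS1 is the one whose spot SD, from the 10 arrays with both spots, came near its SD between animals, 0.39 in prednisolone animals and 0.40 in controls. The spot SD is that of a single spot, whereas the SDs between animals are of values averaged over the spots of a probe. The 2 are thus not like measures.

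The pair P25 and P26, which shared a slide, differed from the other prednisolone animals most for IGFBP4, IGFBP6, IGFBP3 and IGF1. IGFBP4 averaged 10.67 on these arrays and 9.05 on the other 6 prednisolone arrays. IGFBP6 averaged 15.25 on P25 and P26 and 14.09 on the other 6, IGFBP3 10.40 on P25 and P26 and 9.41 on the others, and IGF1 8.10 on P25 and P26 and 7.13 on the others. For IGFBP5 the means were closer, 13.50 on P25 and P26 and 13.11 on the others. No other prednisolone array reached the lower of the 2 for IGF2, IGFBP3, IGFBP4 or IGFBP6. Slide, scan day and animal cannot be told apart with 2 arrays on a slide, and the slides of the control arrays are not known here.

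**Figure D3:**
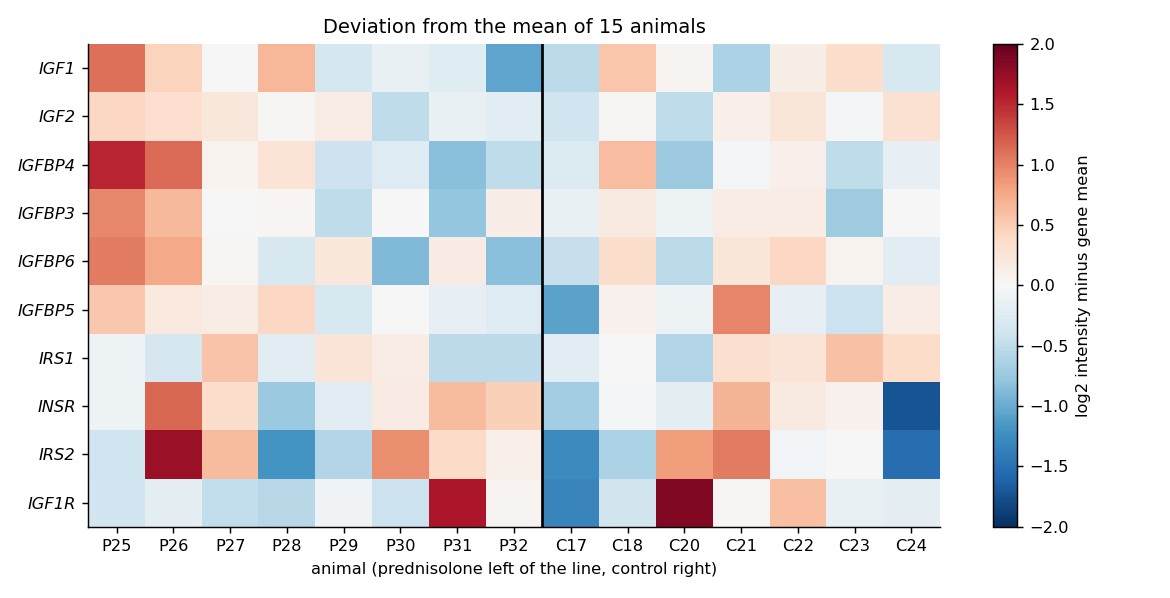
Deviation of each animal (columns) from the gene's mean over 15 animals, in log2 units (colour scale from -2 in blue to 2 in red), for the 10 IGF axis genes (rows). Prednisolone animals are left of the line and controls right; P25 and P26 are high for IGF1, IGFBP3, IGFBP4 and IGFBP6, P31 and C20 for IGF1R, and C24 is low for INSR and IRS2.

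Correlations between members were computed over 15 arrays after removing each group's mean, so that they describe animals and not treatment, and were tested by permuting arrays within groups (100000 permutations, two-sided). Of the 45 pairs, 31 correlated positively and 14 negatively, with a median r of 0.19. After adjustment over the 45 pairs, 3 passed by Pearson's r and 4 by Spearman's rho, and 9 had an unadjusted Pearson p under 0.05. A share over pairs of all genes is not given, so these counts do not set the members apart from other genes.

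INSR and IRS2, a receptor and its docking protein, rose and fell together across animals. Their r was 0.84 (permutation p = 0.00013, adjusted p = 0.00585) and rho was 0.76 (adjusted p = 0.0382). The relation was present in both groups, with r = 0.90 in prednisolone animals and 0.81 in controls. Without the 2 animals farthest from the INSR median, C24 and P26, r was 0.77, and without P25 and P26 it was 0.81 (adjusted p = 0.0526). IRS2 was the 3rd closest of 11310 genes to INSR, and INSR the 4th closest to IRS2. IRS1, the other docking protein, showed no such relation: its r was -0.10 with INSR and -0.07 with IRS2 (adjusted p = 0.899 for each). The IRS1 probe had a single-spot SD of 0.37, near its SDs between animals, 0.39 in prednisolone animals and 0.40 in controls. The latter are SDs of values averaged over spots, in which the scatter of single spots weighs less. The part of this scatter in its low r was not tested.

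IGFBP3 and IGFBP4 had r = 0.85 (permutation p = 0.0005, adjusted p = 0.0102) and rho = 0.79 (adjusted p = 0.0382). In prednisolone animals r was 0.91 and in controls 0.65. P25 and P26 are the upper end of this relation: without the 2 farthest animals, P25 and P31, r was 0.72, without P25 alone 0.78 (adjusted p = 0.0531), and without P25 and P26 0.65 (adjusted p = 0.335). IGFBP4 was the 6th closest gene to IGFBP3 and IGFBP3 the 36th closest to IGFBP4.

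IGF2 and IGFBP6, its preferred binding protein, had r = 0.80 (permutation p = 0.00068, adjusted p = 0.0102) and rho = 0.78 (adjusted p = 0.0382). Prednisolone animals had r = 0.88 and controls 0.71. Without the 2 farthest animals, C20 and P30, r was 0.71, without P25 it was 0.77 (adjusted p = 0.0531), and without P25 and P26 0.72 (adjusted p = 0.202). IGFBP6 was the 30th closest gene to IGF2 and IGF2 the 91st closest to IGFBP6.

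**Figure D4:**
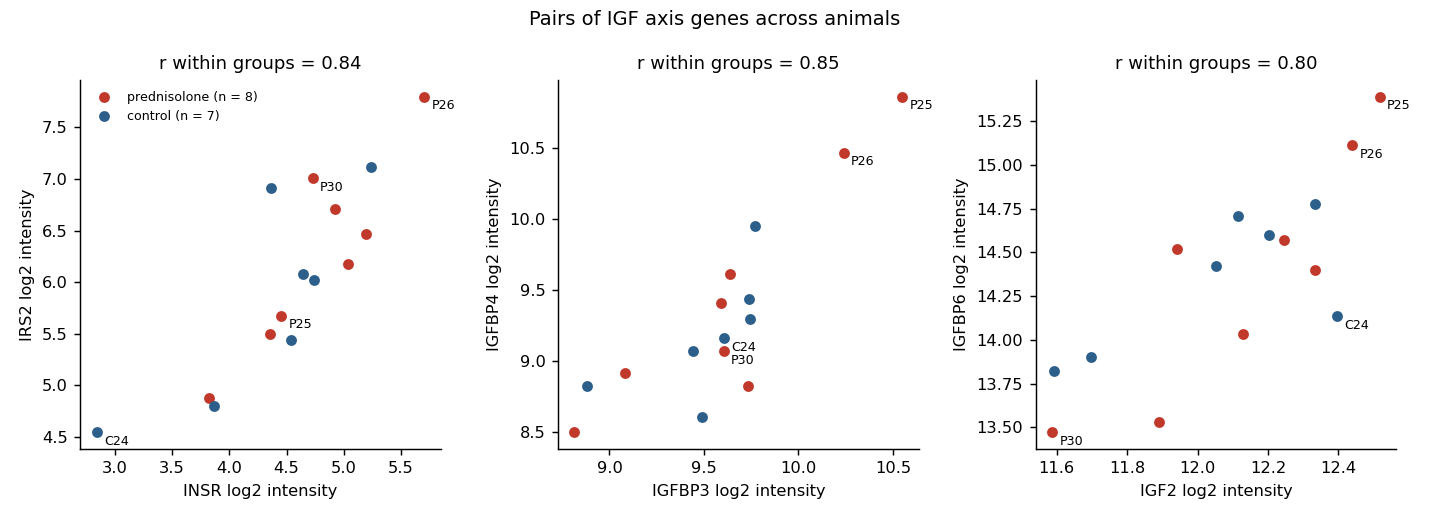
Log2 intensities of INSR against IRS2, IGFBP3 against IGFBP4 and IGF2 against IGFBP6, with 1 point per animal (red prednisolone, n = 8; blue control, n = 7). The r within groups, after removing group means, is 0.84, 0.85 and 0.80, and P25 and P26 form the upper right end of the middle and right panels.

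IGFBP3 and IGFBP5 passed by rank alone, with rho = 0.72 (permutation p = 0.00345, adjusted p = 0.0388) and r = 0.51 (adjusted p = 0.159). Pairs that join the ligand IGF1 to other members did not pass. The strongest was IGF1 with IGFBP4 (r = 0.70, permutation p = 0.0094, adjusted p = 0.086), and without P25 and P26 it had r = 0.47. IGF1 and its receptor IGF1R had r = -0.08 (adjusted p = 0.899), and IGF1 with IGF2 r = 0.40 (adjusted p = 0.423).

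The 3 genes outside the 10 members that were most like each of them were then listed by the same r over the 15 arrays, among the 11311 genes with values on all arrays. These are descriptions, chosen as the highest of many. IGF1R was closest to IFT122, a component of ciliary transport, at r = 0.96, to the hexokinase HK1 at 0.95 and to the chaperone HYOU1 of the endoplasmic reticulum at 0.95. All 3 had their highest value on C20, and without C20 and P31 their r to IGF1R was 0.82, 0.80 and 0.78. IGFBP6 was closest to the fibroblast surface protein THY1 at 0.95, to the collagen chaperone FKBP10 at 0.93 and to type III collagen (COL3A1) at 0.93. IGFBP4 was closest to the metalloprotease inhibitor RECK at 0.96, to ECM2 at 0.94 and to the actin-binding membrane protein MARCKS at 0.93; the array description of the ECM2 probe names another gene, ANTXR1. Without P25 and P26 the RECK value was 0.91 and that of ECM2 0.83.

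IGF2 was closest to GLRX5, which serves iron-sulphur cluster assembly in mitochondria, at 0.90, to the caveolar protein CAVIN3 at 0.89 and to the protocadherin PCDH18 at 0.87. IGFBP3 was closest to the Fc receptor FCGR3A at 0.90, to FEZ1 at 0.89 and to LDB2 at 0.88. IGFBP5 was closest to SCARF2 at 0.91, to the G protein subunit GNA11 at 0.89 and to the endothelial diaphragm protein PLVAP at 0.87. IGF1 was closest to the Golgi protein GOLIM4 at 0.85, to the purine salvage enzyme APRT at 0.84 and to SRPX at 0.83.

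Leaving its fellow member IRS2 aside, INSR was closest to the actin-associated protein PALLD at 0.85, to a probe assigned to KLC1 whose description names KLC2 at 0.85, and to the lysyl hydroxylase PLOD3 at 0.84. IRS1 was closest to TEPSIN at 0.86, to MST1 at 0.84 and to the endothelial transcription factor SOX18 at 0.83. IRS2 was closest to PIWIL2 at 0.87, to the chromatin remodeller CHD2 at 0.87 and to ASCC2 at 0.85. The PIWIL2 probe was well above background on 1 of 8 prednisolone arrays. The other 29 of these 30 genes were well above background on all 8.

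Marker lists of other cells were set against the members because muscle samples hold connective tissue, vessels and blood cells. The score of a list is the mean over its genes of the centred log2 value. Correlating 11 list scores with the 10 members gave 110 relations, and these were computed after the values had been seen. After adjustment over all 110, 9 passed by Pearson's r and 2 by Spearman's rho. The 2 were those of the fibroblast score with IGFBP6 and of the thymocyte score with IGF2. No share over all genes is given beside these counts, so they do not set the members apart from other genes.

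The fibroblast score (6 of 6 markers measured, all well above background) went with IGFBP6 at r = 0.90 (permutation p = 9e-05, adjusted p = 0.00917), with rho = 0.88 (adjusted p = 0.0126). COL3A1, one of the genes closest to IGFBP6, is also one of these markers. Without the farthest animals P25 and P32 r was 0.82, and without P25 and P26 it was 0.79 (adjusted p = 0.0539). The same score had r = 0.76 with IGF1 and 0.77 with IGFBP4 (adjusted p = 0.0414 for each), but neither passed by rank (rho = 0.65 with IGF1, adjusted p = 0.138, and 0.74 with IGFBP4, adjusted p = 0.0834). Neither of those passed without P25, where r was 0.66 (adjusted p = 0.22) for IGF1 and 0.64 (adjusted p = 0.227) for IGFBP4. The score ranged from -1.13 to 1.03 in prednisolone animals and from -0.45 to 0.74 in controls, and the log2 of the summed signal of the list from 14.01 to 16.38 in prednisolone animals and from 14.71 to 16.07 in controls. The part of fibroblast content in these members was not tested.

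The thymocyte score went the other way. IGF2 was low where it was high, at r = -0.85 (permutation p = 0.00018, adjusted p = 0.00917) and rho = -0.88 (adjusted p = 0.0088), and without the farthest animals C17 and P30 r was -0.78. By Pearson's r it was the one relation that passed under all 22 settings tried. Those settings, the main one among them, were mostly single animals left out. They did not include the mean of both IGF2 probes. IGFBP6 had r = -0.79 with the same score (adjusted p = 0.0143), rho = -0.68 (adjusted p = 0.12), and r = -0.82 without C17 (adjusted p = 0.0547). Of the 6 thymocyte markers, 4 were measured and 3 entered the score, namely DNTT, PTCRA and CD8A. DNTT was well above background on 4 of 8 prednisolone arrays, and PTCRA and CD8A on all 8. DNTT reached 13.77 on C17 and went down to 1.51 on P26, the widest range of the 3. PTCRA ranged from 4.22 on C24 to 7.55 on C17, and CD8A from 5.43 on P29 to 11.93 on C17. A score without DNTT was not tested. RAG1, which is not in the score, had a value on 9 of 15 arrays. The score ranged from -2.36 to 3.65 in prednisolone animals and from -2.26 to 4.78 in controls, and the log2 summed signal from 6.16 to 12.56 in prednisolone animals and from 6.22 to 14.14 in controls. The part of such cells in the IGF2 values was not tested.

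The testis germ cell score had r = 0.77 with IGF1R (permutation p = 0.00025, adjusted p = 0.00917) and rho = 0.74 (adjusted p = 0.0834). Without the farthest animals C20 and P27 r was 0.75, but without C20 and P31 it was 0.53 (adjusted p = 0.31). Without C20 alone it was 0.76 (adjusted p = 0.0568) and without P31 alone 0.64 (adjusted p = 0.0654). All 6 markers were measured and 4 entered the score. Of these, PRM1, a protamine of sperm heads, had 2.25 on P27 and 17.84 on C20 as its extremes. ODF1 was well above background on all 8 prednisolone arrays, PRM1 on 6, TNP1 on 5 and TNP2 on 7. The score ranged from -5.03 to 4.44 in prednisolone animals and from -1.06 to 5.32 in controls, and the log2 summed signal from 8.76 to 17.68 in prednisolone animals and from 11.34 to 18.13 in controls.

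The remaining relations that passed were weaker. The endothelial score had r = 0.70 with IGF2 (adjusted p = 0.0313), and the leukocyte score had r = -0.74 with IGF2 (adjusted p = 0.0313) and -0.74 with IRS1 (adjusted p = 0.033). None of these passed by rank: rho was 0.66 for the endothelial score (adjusted p = 0.12), and for the leukocyte score -0.72 with IGF2 (adjusted p = 0.0834) and -0.70 with IRS1 (adjusted p = 0.114). Without the farthest animals C17 and C20, the leukocyte values were -0.54 for each gene. By the permutation test, the endothelial relation had r = 0.68 without C17 (adjusted p = 0.0771) and 0.64 without C20 (adjusted p = 0.064). By Pearson's r, it passed under 12 of the same 22 settings, and the leukocyte relations under 9 with IGF2 and 11 with IRS1. All 6 markers of each list were measured. The leukocyte markers did not peak together: PTPRC and CD3E were highest on C17, where CD14 was lowest, and CD14 and AIF1 on C20. CSF1R was highest on C18 and CD68 on P32, and CD68 was well above background on 7 of 8 prednisolone arrays. The log2 summed endothelial signal ranged from 11.18 to 11.63 in prednisolone animals and from 10.72 to 12.20 in controls, and the leukocyte signal from 10.65 to 11.47 in prednisolone animals and from 10.17 to 12.35 in controls. For these relations, too, the part of the cells was not tested.

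**Figure D5:**
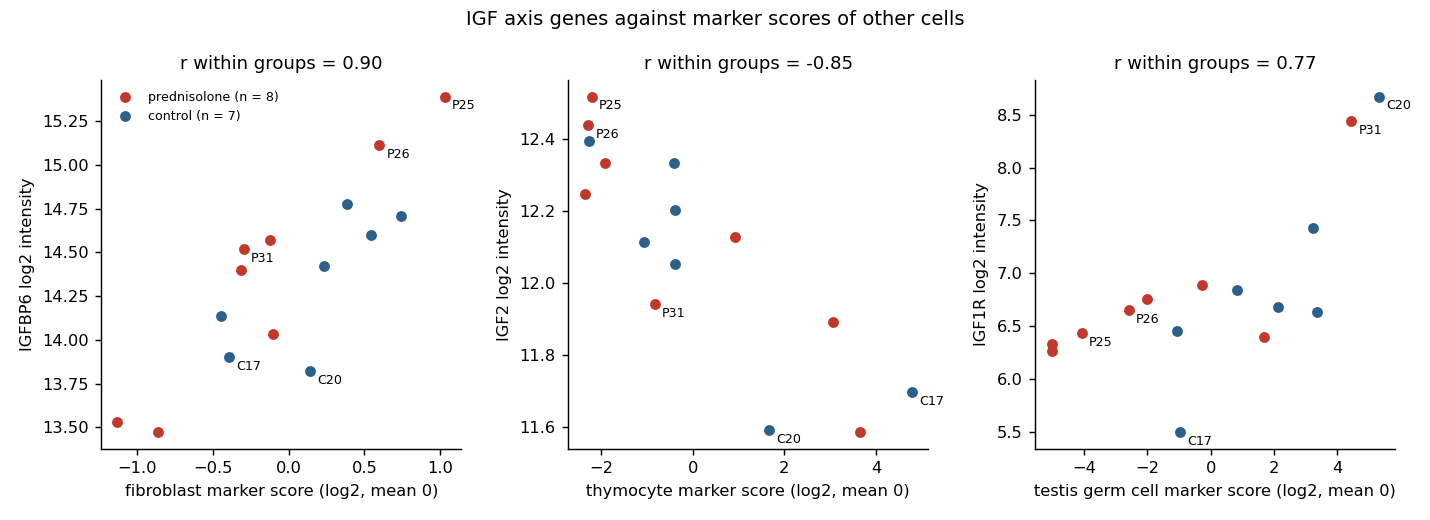
IGFBP6 against the fibroblast score, IGF2 against the thymocyte score and IGF1R against the testis germ cell score, all in log2 units, with 1 point per animal (red prednisolone, n = 8; blue control, n = 7). The r within groups is 0.90, -0.85 and 0.77, and in the right panel C20 and P31 lie above all other animals.

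The wider pathway was covered by 45 further genes, of which 41 were tested. IGFBP7, INSRR and FOXO1 had no probe by the naming used here, and IRS4 had too few values. None of the 41 passed the adjusted threshold in limma and none had an unadjusted p under 0.05. With 21 positive and 20 negative differences and a median of 0.03, the list was balanced, as were all genes. Among the 31 of them well above background on all 8 prednisolone arrays, 18 differences were positive and 13 negative.

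The 5 pathway genes with the smallest p are given here, none of which passed. IGF2BP3, an RNA-binding protein of fetal tissues, averaged 3.15 ± 1.60 in prednisolone animals and 4.56 ± 1.40 in controls, a difference of -1.41 (-2.97 to 0.14, unadjusted p = 0.0718, adjusted p = 0.993 in limma), with 2 of 8 prednisolone arrays well above background. SOCS3, a feedback inhibitor of cytokine and insulin signalling, averaged 5.96 ± 0.79 in prednisolone animals and 5.46 ± 0.49 in controls, a difference of 0.49 (-0.21 to 1.20). PIK3R1, the regulatory subunit that docks on IRS proteins and that glucocorticoids are known to raise in rodent muscle cells, averaged 13.02 ± 0.49 in prednisolone animals and 13.38 ± 0.59 in controls, a difference of -0.36 (-0.94 to 0.21). These 3 intervals include 0.

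JAK2, the kinase that couples the growth hormone receptor to IGF1 transcription, averaged 6.49 ± 0.27 in prednisolone animals and 6.66 ± 0.13 in controls, a difference of -0.16 (-0.43 to 0.10). INPP5D, a phosphatase of blood cells, averaged 1.89 ± 0.47 on the 7 prednisolone arrays with a value and 3.19 ± 2.98 on the 5 such control arrays, a difference of -1.30 (-3.54 to 0.93). It was well above background on 0 of 8 prednisolone arrays, and the SD of the controls exceeded the difference.

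Some neighbours of the members are given beside these, and none of them passed either threshold. The growth hormone receptor GHR, which drives IGF1 synthesis, averaged 13.09 ± 0.28 in prednisolone animals and 13.04 ± 0.15 in controls, a difference of 0.06 (-0.22 to 0.33). IGF2R, the scavenger receptor of IGF2, averaged 11.62 ± 0.33 in prednisolone animals and 11.59 ± 0.44 in controls, a difference of 0.03 (-0.39 to 0.45). Both intervals include 0.

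PAPPA, the protease of IGFBP4, had a difference of 0.31 (-0.63 to 1.26), with 5.46 ± 0.92 in prednisolone animals and 5.15 ± 0.91 in controls. IGFALS, the acid-labile subunit that carries IGFBP3 in serum, had a difference of 0.28 (-0.39 to 0.96), with 7.10 ± 0.75 in prednisolone animals and 6.82 ± 0.49 in controls. H19, the non-coding RNA of the imprinted IGF2 locus, had a difference of -0.20 (-1.09 to 0.68), with 15.58 ± 0.90 in prednisolone animals and 15.79 ± 0.79 in controls. The insulin-responsive glucose transporter SLC2A4 had 13.71 ± 0.44 in prednisolone animals and 13.77 ± 0.21 in controls, a difference of -0.06 (-0.45 to 0.33). All 4 were named after their values were seen, as were GHR, IGF2R, IGFBP1 and IGFBP2.

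The hepatic binding proteins IGFBP1 and IGFBP2 were near the background on the prednisolone arrays. IGFBP1 was well above it on 0 of 8 prednisolone arrays and IGFBP2 on 1 of 8. Another 5 probes whose descriptions resemble a receptor or docking protein of the axis, without its symbol, were kept out of the members. They were LOC619174 (like IGF1R), LOC617632 (like IRS2), LOC517164 and LOC528625 (like the insulin receptor) and LOC532330 (like IRS3). None was well above background with all its spots on more than 1 of 8 prednisolone arrays. At least 1 spot was so flagged on 5 of 8 for LOC517164, on 2 of 8 for LOC617632 and LOC528625, and on 0 of 8 for LOC619174 and LOC532330.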

How the data were processed

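The deposited value table holds the authors' intensity of each spot on a linear scale for 15 arrays, 1 per animal. Per the design text, slides were scanned at 5 micrometre resolution and sensitivities of 100% and 10%, with Feature Extraction 9.5 (9.5.1.1 per the file headers). R 2.11.1 was used per the submitters' processing notes, and how arrays were scaled to each other was not given in the sources used here. Scanner output of the 8 prednisolone arrays gave the detection flags and slides. On these arrays the table correlated with the log2 processed signal at r from 0.999793 to 0.999991 across spots, which are not independent replicates, and every empty cell was a spot the scanner software had not found. Other deposited columns (names, flags and similar fields) have no measurement unit and served as annotation.

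The 42990 spots cover 21475 probes. Gene names came from the array fields through the RefSeq gene table: 9990 probes by gene identifier, 3580 by description, 2479 by symbol, 1218 by accession and 86 by synonym, so that 17353 were named and 4122 not. Values were taken as log2, and each array was shifted to the same 75th percentile over the 14324 probes with values on all arrays. Spots of a probe were averaged, and probes with at least 3 values per group were tested (20894). Groups were compared with limma 3.58.1 (R 4.3.3) without trend. The exact permutation test ran over 6435 regroupings, with a smallest possible p of 0.000155. The scripts were tested on simulated data.

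The members, the pathway and marker lists and the tests were chosen with earlier results of these data known. Named genes are all members, the 3 closest genes of each, and the 5 pathway genes with the smallest p; others are said to be chosen later. The labels call each animal a separate sample. The number of arrays limits the precision. No genome of the files' build was used, so no positions or probe sequences are given. Alternatives were other scalings, filters, tests and probe summaries, and leaving out arrays. One gene of the pathway list is not reported here by name.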

Additional observations from a re-analysis of the deposited data

Results flagged for a closer look

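Each group of at most 10 animals was searched for 1 value far from the rest, by its gap to the nearest value as a share of the group's whole range. Of 23 groups of member probes tested, 2 held such a value, and chance gives about 1 in 20. IGF1R on P31 was 8.44 in the prednisolone group, where the next animal had 6.89, and the gap was 0.715 of the range against a critical value of 0.526. IGFBP3 on C23 was 8.88 in the control group, where the next animal had 9.44, and the gap was 0.632 of the range against a critical value of 0.568.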

How the results depend on the processing

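No member passed the adjusted threshold under any of the 13 other settings or with any 1 animal left out. Among these settings, the exact permutation and Wilcoxon tests could hardly pass any probe after adjustment, because of their smallest possible p. The difference of all probes gave 0 calls, except 1 (PZP, not a member) without C20 and P31 (adjusted p = 0.0396 in limma) and without P31 (adjusted p = 0.0274), and 1 (ZNF696) without C23 (adjusted p = 0.0421), so the range over single animals left out was 0 to 1. No scaling moved the median difference of all probes tested by more than 0.05. The signs of INSR, IRS1 and IRS2 held in every setting and that of IGFBP5 in all but 1. The Wilcoxon and permutation tests, the intensity trend and the filters leave each difference as it is by construction. So does the mean of all probes for INSR, IRS1 and IRS2, which have 1 probe each. Only the other scalings, the array weights and leaving out arrays could turn these 3 signs. IGFBP6 turned to -0.081 with array weights and to -0.067 without C20 and P31, and IGF1R to 0.018 under quantile normalization. IGF2 turned to -0.54 with the mean of both probes, because C18 lacks the dim one. Without P25 and P26, chosen after seeing the data, the differences were -0.13 for IGF1, -0.034 for IGF2, -0.11 for IGFBP3, -0.14 for IGFBP4 and -0.25 for IGFBP6. With 1 animal left out, differences ranged from -0.043 to 0.27 for IGF1, 0.003 to 0.16 for IGF2, -0.36 to 0.18 for IGF1R, 0.21 to 0.61 for INSR, -0.30 to -0.11 for IRS1, 0.21 to 0.64 for IRS2, 0.01 to 0.25 for IGFBP3, 0.06 to 0.40 for IGFBP4, -0.019 to 0.32 for IGFBP5 and -0.11 to 0.17 for IGFBP6. The 3 member pairs became 10 under quantile normalization and 0 without P25 and P26, and 1 to 4 with single animals left out (1 without P25). IGF2 with IGFBP6 fell to r = 0.32 (adjusted p = 0.37) with the mean of both probes. The 9 marker relations became 3 without C20 and P31, and 3 to 9 with single animals left out (3 without C17, without C20 or without P32). The cause of these changes was not tested, save for the missing probe value. Filters on the number of values left the pairs as they were by construction, since every member has all values. Dim probes (INSR, the second probe of IGF2) are limited by signal over background. No paired analysis was possible because the groups share no replicate numbers.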
